A study of Saccharomyces cerevisiae with 8 samples.

Results

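Short reading frames with hyphenated names were measured as polyadenylated RNA in 4 strains of budding yeast. A hyphen and a letter were added to a systematic name when a reading frame was recognised after its neighbours had been numbered, so these frames are mostly short or little studied. The members were taken from the 632 hyphenated identifiers in the count table by name, annotation and abundance. Frames annotated as Dubious (226), ribosomal protein genes (9) and frames of Ty elements (72) were set aside, which left 325. Of these, 221 had at least 20 counts over all 8 libraries and form the set, out of 9014 features in all. Another 104 fell below that minimum, and 36 of them had no count in any library. At the border, YMR105W-A, YGL041C-B and YOR394C-A with 19 counts each and YER188C-A with 19.3 stayed out. YML100W-A, DPA10 and YBR182C-A with 20 counts each and YOR396C-A with 20.4 came in.

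The air1 rrp6 strain (air1::bleR rrp6::LEU2), the air2 rrp6 strain (air2::bleR rrp6::LEU2), the rrp6 strain (rrp6::LEU2) and the wild type (WT, BY4742) each gave 2 libraries. All 4 carry the MAT-alpha his3, leu2, lys2 and ura3 background, so each comparison of a mutant with WT also sets a LEU2 strain against a leu2 strain, and loss of RRP6 and gain of LEU2 cannot be told apart. Cells grew from a single colony in the rich medium YPD at 30 °C until the optical density reached 2.5 or so. RNA with A tails was then captured on poly(U) sepharose and read on the SOLiD platform. No label tells whether the duplicates were separate cultures, and the p-values reflect the spread of these libraries alone, some or all of which may be technical. The series title asks which RNAs Air1 and Air2 steer to nuclear RNA surveillance.

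Rrp6 is the 3′ to 5′ exonuclease that joins the RNA exosome in the nucleus. The TRAMP complex, which contains a poly(A) polymerase, the helicase Mtr4 and either Air1 or Air2, adds short adenosine tails to aberrant or non-coding nuclear RNAs and passes them to the exosome. Without Rrp6 such tailed RNAs, among them cryptic transcripts and extended precursors of small nucleolar RNAs, are known to accumulate and can be caught by poly(A) selection.

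The labels matched the deleted genes. RRP6 had 19 to 51 counts in the 6 mutant libraries, against 377 and 2131 in WT. AIR1 had 7 and 2 counts in air1 rrp6 libraries and at least 210 elsewhere, and AIR2 had 34 and 21 in air2 rrp6 libraries and at least 102 elsewhere. LEU2 had 219 to 559 counts in mutant libraries, against 0 and 0 in WT. WT replicate 1 was the shallowest library, with 13787598 counts, WT replicate 2 the deepest, with 124620262, and ribosomal DNA features took 51.9 to 82.6% of a library's counts. The members took 0.571 to 0.793% of the counts outside ribosomal DNA. Values below are CPM, counts scaled to library size by edgeR's trimmed means (TMM) unless they are called counts. As these are bulk samples, fewer cells with an RNA and less of it per cell cannot be told apart.

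Of the 221 members, 199 were found by identifier in the RefSeq annotation of the R64 assembly, and 22 were not. The 199 frames had a median of 80 codons and ranged from 28 to 530, and 157 of them had at most 100 codons. Another 14 exceeded 200 codons, so the label "short" does not hold for every member. The other coding frames had a median of 433 codons. That annotation gave a gene symbol for 124 members. The 97 counted as without a symbol are 75 that it lists without one and the 22 that it does not list. Among the 199, 28 were spliced and 19 overlapped another annotated feature.

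Coding sequences of 4 members that the results turn on are given here from RefSeq R64, 5′ to 3′. For YJL047C-A (chromosome X, minus strand), the capitals mark the bases that lie within the small nucleolar RNA gene SNR60 on the same strand. For YKL183C-A (chromosome XI, minus strand), YOR032W-A (chromosome XV, plus strand) and CMC4 (chromosome XIII, minus strand, 2 coding exons joined), the capitals mark the start and stop codons. YJL047C-A is shown for the bases it shares, YKL183C-A and YOR032W-A because they had no count in WT, and CMC4 because it was lower in each mutant.
YJL047C-A: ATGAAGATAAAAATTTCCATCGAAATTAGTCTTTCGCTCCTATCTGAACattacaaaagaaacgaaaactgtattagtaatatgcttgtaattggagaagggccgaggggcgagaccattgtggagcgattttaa
YKL183C-A: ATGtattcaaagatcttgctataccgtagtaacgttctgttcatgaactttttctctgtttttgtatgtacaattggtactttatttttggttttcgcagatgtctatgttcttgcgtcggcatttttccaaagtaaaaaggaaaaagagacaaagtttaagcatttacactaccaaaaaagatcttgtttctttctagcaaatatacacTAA
YOR032W-A: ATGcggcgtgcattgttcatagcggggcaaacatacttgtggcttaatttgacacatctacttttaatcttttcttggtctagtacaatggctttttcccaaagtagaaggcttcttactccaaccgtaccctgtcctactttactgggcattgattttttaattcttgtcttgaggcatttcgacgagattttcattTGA
CMC4: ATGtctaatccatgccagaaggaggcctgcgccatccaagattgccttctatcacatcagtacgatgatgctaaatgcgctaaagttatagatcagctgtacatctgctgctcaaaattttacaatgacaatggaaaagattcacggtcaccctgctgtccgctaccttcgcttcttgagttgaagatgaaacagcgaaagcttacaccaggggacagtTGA

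The frames differed widely in level. Per kilobase of coding length, WT levels had a median of 16.9 CPM in the 124 members with a symbol and 1.62 CPM in the 75 members without one that have a known length. The most abundant by far was YLR154C-G, at 26700 CPM per kilobase in WT, and its whole 150-base frame lies within the 25S ribosomal RNA on the same strand. Its counts were 51021 and 28681 in air1 rrp6, 37089 and 25209 in air2 rrp6, 19437 and 49492 in rrp6, and 30972 and 334881 in WT. Next came YDR524C-B, a protein of unknown function, at 1320 CPM per kilobase in WT, then the cell wall mannoprotein CWP2 at 875, HOR7, named for its response to high osmolarity, at 765, SBH2 of the Ssh1 translocon at 229 and VMA10 of the vacuolar proton pump at 217. None of these 6 was called in the fit over all 8 libraries. YLR154C-G was lower in air2 rrp6 when those libraries and WT were fitted alone. Lower calls of YLR154C-G, HOR7 and SBH2 also appeared when certain single libraries were left out. Whether neighbours in that order differ was not tested.

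Most hyphenated frames did not change past the threshold. In the 182 members that passed the low-count filter, 11 were higher and 2 lower in air1 rrp6 than in WT, 10 were higher and 2 lower in air2 rrp6, and 9 were higher and 2 lower in rrp6 (edgeR's quasi-likelihood test, Benjamini-Hochberg adjusted p below 0.05 over 7543 features). Over all features tested, 8.39% were called in air1 rrp6 (7.64% higher and 0.756% lower), 10.3% in air2 rrp6 (8.75% higher and 1.54% lower) and 10.1% in rrp6 (8.8% higher and 1.29% lower). The members' shares were 6.04% and 1.1% in air1 rrp6, 5.49% and 1.1% in air2 rrp6, and 4.95% and 1.1% in rrp6; those shares are near the background or below it. The 3 comparisons share the WT libraries. The 39 members removed by the filter had 20 to 87 counts in all, with a median of 30, and 2 of them had no count in WT. Fitted without the filter, none of the 39 was called by edgeR or by DESeq2. By edgeR, 2 had an unadjusted p below 0.05 in air1 rrp6, 5 in air2 rrp6 and 2 in rrp6. Those counts were not set against all features. With the replicate number as a block, 16 members were higher and 2 lower in air1 rrp6, 14 higher and 5 lower in air2 rrp6, and 11 higher and 6 lower in rrp6. The share of all features called under the block was larger too, at 11.9% in air1 rrp6, 14.3% in air2 rrp6 and 13.8% in rrp6. Other members that the block added were ADF1 (adjusted p = 0.021) and COA3 (0.045), higher in air1 rrp6. In air2 rrp6 they were YEL075W-A (0.049), YGR121W-A (0.045) and YML012C-A (0.049), all higher. In rrp6 they were YOL159C-A (0.045), higher, and SCS22 (0.028), LSB3 (0.03) and CMI8 (0.048), lower. Counts moved with single libraries. Higher calls in air1 rrp6 fell to 5 without air1 rrp6 replicate 1, 4 without air1 rrp6 replicate 2 and 5 without WT replicate 2, and were 7 without WT replicate 1 or either air2 rrp6 library. In air2 rrp6 they were 6 and 5 without the air1 rrp6 replicates 1 and 2, and 4 without air2 rrp6 replicate 2 or WT replicate 2. In rrp6 they were 4 without WT replicate 2. The shares of all features called higher without a library also differed, from 2.01 to 7.27% in air1 rrp6, 3.75 to 8.54% in air2 rrp6 and 5.65 to 7.49% in rrp6.

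In all, 17 members were called in at least 1 of these comparisons, 14 of them higher and 3 lower. Of the 14, 7 were higher in all 3 mutants, namely YJL047C-A, YPL222C-A, NAG1, ECM12, YKL183C-A, YOR032W-A and YHR214C-E. SFT1 and YOR186C-A were called in 2, and YCL021W-A, YGL194C-A, YIL102C-A, YML094C-A and YPR170W-B in 1. No symbol was found in RefSeq for 11 of the 14, among them YPL222C-A, YOR186C-A and YML094C-A, which it does not list. The count minimum and the low-count filter drew on all strains, so frames with few WT counts could enter through mutant libraries alone. YKL183C-A, YOR032W-A, YOR186C-A and YML094C-A are among those that did. The 14 higher and 3 lower calls are therefore not a like-for-like comparison.

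**Figure D1:**
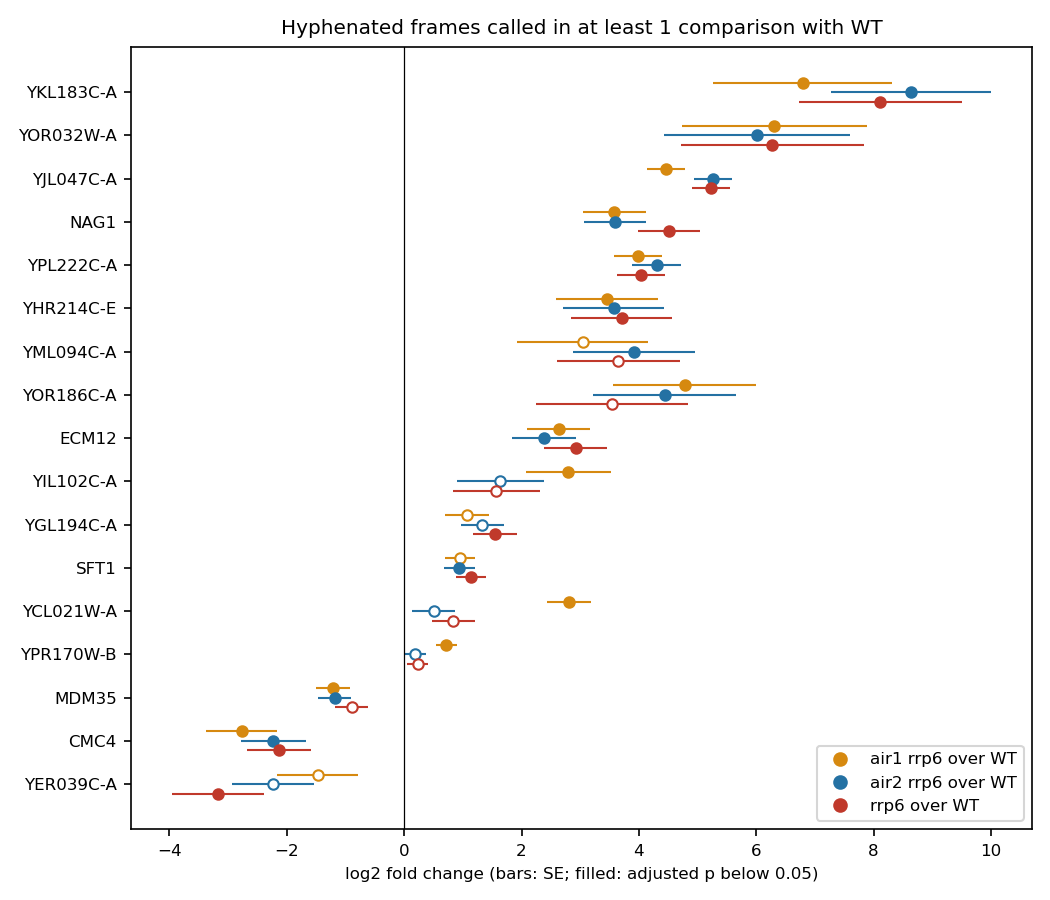
Log2 fold change of each mutant over WT (horizontal axis) for the 17 members called in at least 1 comparison with WT; bars are standard errors (SE) and filled points have an adjusted p below 0.05. YJL047C-A, NAG1 and YPL222C-A lie at 3.58 or more in each mutant, and YCL021W-A stands at 2.81 in air1 rrp6; the points of YKL183C-A and YOR032W-A, with 0 counts in WT, depend on the model's prior count.

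YJL047C-A had the smallest adjusted p of any member in each comparison with WT. This frame of 44 codons had 105 and 167 counts in air1 rrp6, 406 and 303 in air2 rrp6, 347 and 292 in rrp6, and 3 and 19 in WT. In CPM it averaged 6.55 ± 0.67 in air1 rrp6, 11.5 ± 1.1 in air2 rrp6, 11.2 ± 1.7 in rrp6 and 0.277 ± 0.05 in WT (SD, n = 2 each). Every mutant library lay above both WT libraries. The log2 fold changes over WT were 4.46 in air1 rrp6 (SE 0.32, adjusted p = 9.5e-05), 5.26 in air2 rrp6 (SE 0.32, adjusted p = 4.7e-05) and 5.23 in rrp6 (SE 0.32, adjusted p = 3.4e-05). The call held in each of 15 alternative settings in all 3 comparisons.

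The capitals in its sequence mark the first 49 of its 135 bases, which are also bases of SNR60. The SNR60 gene has 104 bases, and 55 of them lie before the frame. The small nucleolar RNA snR60, a C/D-box guide for ribosomal RNA methylation, had 1431 and 1555 counts in air1 rrp6, 2324 and 1916 in air2 rrp6, 5581 and 3140 in rrp6, and 412 and 5798 in WT. Its own log2 fold change over WT was 0.20 in air1 rrp6 (adjusted p = 0.87), 0.10 in air2 rrp6 (adjusted p = 0.92) and 1.19 in rrp6 (adjusted p = 0.12). For each 100 counts of snR60, the frame had 7.35 and 10.7 in air1 rrp6, 17.5 and 15.8 in air2 rrp6, 6.22 and 9.31 in rrp6, and 0.728 and 0.328 in WT. The frame and snR60 did not change in proportion. Before rounding, both had non-whole counts in the same libraries. These were 105.14 and 1430.86 in air1 rrp6 replicate 1, 406.15 and 2323.85 in air2 rrp6 replicate 1, and 292.17 and 3139.83 in rrp6 replicate 2. The fractions of each pair complete a whole count, so some reads appear to have been split between the frame and snR60. The rule for assigning reads in the shared bases is not known. The other neighbours, RTT101 401 bases upstream and UBX6 406 bases downstream, both on the same strand, had log2 fold changes between -0.19 and 0.36 and were not called.

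**Figure D2:**
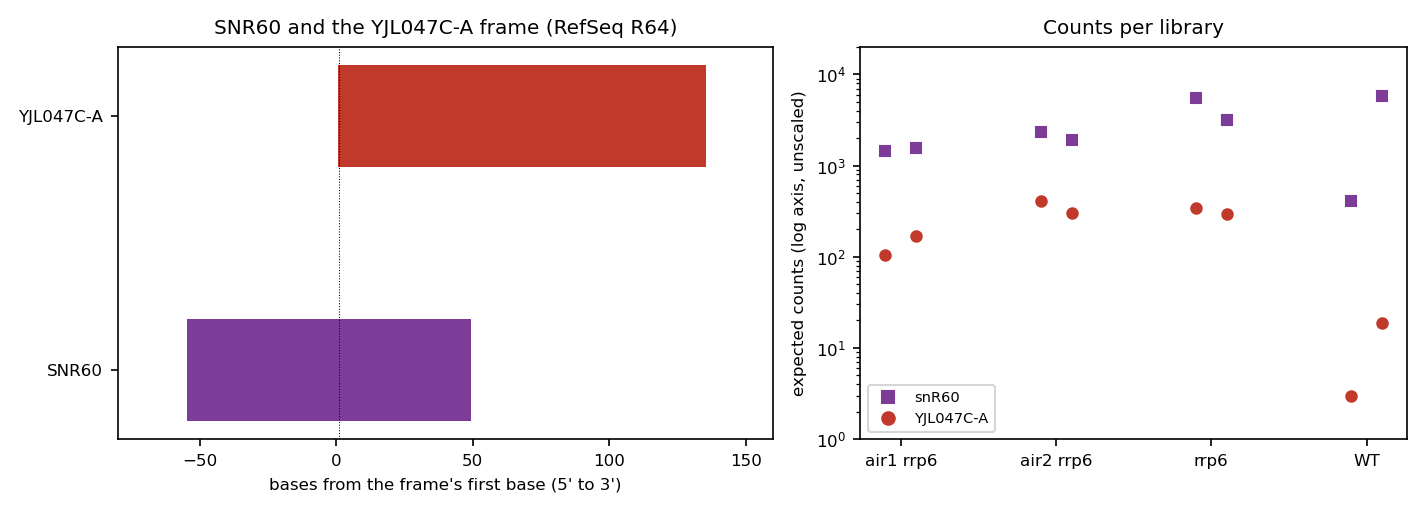
Left, the SNR60 gene and the YJL047C-A frame drawn in bases from the first base of the frame, with 49 shared bases. Right, expected counts of snR60 (squares) and of YJL047C-A (circles) in each library on a log axis; the frame has 3 and 19 counts in WT and at least 105 in each mutant library, while snR60 spans 412 to 5798 within WT alone.

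YPL222C-A, which the RefSeq annotation does not list, was likewise low in WT. It had 8.85 and 6.43 CPM in air1 rrp6, 11.6 and 7.47 CPM in air2 rrp6, 8.25 and 7.64 CPM in rrp6, and 0.725 and 0.378 CPM in WT. The mutants did not overlap WT, and the log2 fold changes were 3.98 in air1 rrp6 (SE 0.41, adjusted p = 0.00088), 4.30 in air2 rrp6 (SE 0.41, adjusted p = 0.00068) and 4.04 in rrp6 (SE 0.41, adjusted p = 0.00074). These calls also held in each of the 15 alternatives. Among tested members, YPL222C-A had the profile most like that of YJL047C-A over the 8 libraries (Pearson r of 0.96 on log2(CPM + 1)), followed by NAG1 and YGL194C-A (0.926 each). These libraries share strains, so the r values are descriptions only.

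NAG1, the nested antisense gene, lies wholly within IMO32 on the opposite strand. It had 1.21 and 1.14 CPM in air1 rrp6, 1.19 and 1.17 CPM in air2 rrp6, 2.25 and 2.25 CPM in rrp6, and 0.0805 and 0.0987 CPM in WT. Its log2 fold changes over WT were 3.58 in air1 rrp6 (SE 0.54, adjusted p = 0.0058), 3.59 in air2 rrp6 (SE 0.53, adjusted p = 0.0035) and 4.51 in rrp6 (SE 0.53, adjusted p = 0.0014). The air2 rrp6 call was lost when the ribosomal DNA share of each library entered as a covariate (adjusted p = 0.07). IMO32, a mitochondrial protein gene, was not called, with log2 fold changes of 0.46 in air1 rrp6, 0.22 in air2 rrp6 and -0.06 in rrp6. GSC2, a glucan synthase gene 963 bases upstream on the opposite strand, was higher in air2 rrp6 (1.63, adjusted p = 0.0036) and rrp6 (0.88, adjusted p = 0.048). The sources used here do not say whether counting followed strand, and without strand NAG1 and IMO32 reads cannot be told apart.

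ECM12, a gene of unknown molecular function, shares 106 bases with YHR022C on the opposite strand. It had 2.83 and 2.77 CPM in air1 rrp6, 1.87 and 2.87 CPM in air2 rrp6, 4.33 and 2.50 CPM in rrp6, and 0.161 and 0.592 CPM in WT. The groups did not overlap, and the log2 fold changes were 2.63 in air1 rrp6 (adjusted p = 0.018), 2.38 in air2 rrp6 (adjusted p = 0.021) and 2.92 in rrp6 (adjusted p = 0.0088). YHR022C was not called in any of the 3, at 0.96 in air1 rrp6, -0.04 in air2 rrp6 and 0.41 in rrp6. The ECM12 call held in 11 of 15 alternatives in air1 rrp6, in 11 in air2 rrp6 and in 14 in rrp6. Leaving out air1 rrp6 replicate 1 or 2, or WT replicate 1, ended the air1 rrp6 call (adjusted p up to 0.12), and leaving out air2 rrp6 replicate 2 or WT replicate 1 ended the air2 rrp6 call (up to 0.23). Here and below, "up to" gives the highest adjusted p over all alternatives of a call, left-out libraries included.

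YKL183C-A and YOR032W-A, both without a known role, had no count in either WT library. YKL183C-A had 4 and 16 counts in air1 rrp6, 51 and 51 in air2 rrp6, and 59 and 14 in rrp6. Its ratio to a floor of 3 counts over the 2 WT libraries was 11.9 in air1 rrp6 (adjusted p = 0.03). It was 39.7 in air2 rrp6 (adjusted p = 0.0055) and 30.6 in rrp6 (adjusted p = 0.0081). Ratios to the floor take the mutant counts as exact, so they are not lower limits like the exact intervals given below. Without WT replicate 2, the deeper WT library, its call was lost in all 3 comparisons (adjusted p up to 0.22 in air1 rrp6, 0.082 in air2 rrp6 and 0.075 in rrp6 over the alternatives). The air1 rrp6 call was also lost without air1 rrp6 replicate 2, WT replicate 1 or either air2 rrp6 library. YOR032W-A had 4 and 10 counts in air1 rrp6, 6 and 10 in air2 rrp6, and 7 and 11 in rrp6. Its ratio to the same floor was 8.32 in air1 rrp6 (adjusted p = 0.045), 6.23 in air2 rrp6 (adjusted p = 0.047) and 7.54 in rrp6 (adjusted p = 0.038). Leaving out any 1 of the 8 libraries ended each of these YOR032W-A calls, with adjusted p up to 0.28. No neighbour of either frame was called higher: SPE1, which starts polyamine synthesis, and LOT5 flank YKL183C-A, and LOT5 was lower in air2 rrp6 (log2 fold change -0.87, adjusted p = 0.045).

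YHR214C-E had 1.10 and 1.81 CPM in air1 rrp6, 0.898 and 2.34 CPM in air2 rrp6, 1.21 and 2.33 CPM in rrp6, and 0.322 and 0.0658 CPM in WT. All mutant libraries were above WT, with log2 fold changes of 3.45 in air1 rrp6 (adjusted p = 0.04), 3.57 in air2 rrp6 (adjusted p = 0.028) and 3.71 in rrp6 (adjusted p = 0.024). Its counts are not whole numbers, so some of its reads may have been shared with another feature. PHO12, the acid phosphatase gene 599 bases upstream on the opposite strand, was lower in the same strains, at -1.86 in air1 rrp6 (adjusted p = 0.00082), -1.89 in air2 rrp6 (adjusted p = 0.00073) and -1.20 in rrp6 (adjusted p = 0.004). The YHR214C-E call held in 10 of 15 alternatives in air1 rrp6, 10 in air2 rrp6 and 11 in rrp6. It was lost in all 3 without WT replicate 2, in air1 rrp6 without either of its own libraries, in air2 rrp6 without air1 rrp6 replicate 2 or air2 rrp6 replicate 2, and in rrp6 without rrp6 replicate 2 (adjusted p up to 0.25, 0.3 and 0.16 in those mutants).

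SFT1 encodes a SNARE protein of Golgi transport. It had 12.2 and 11.3 CPM in air1 rrp6, 10.3 and 13.1 CPM in air2 rrp6, 10.6 and 16.2 CPM in rrp6, and 5.96 and 6.17 CPM in WT. The log2 fold changes were 0.95 in air1 rrp6 (adjusted p = 0.054, and 0.023 with the block), 0.94 in air2 rrp6 (adjusted p = 0.047) and 1.14 in rrp6 (adjusted p = 0.022). SNR87, a small nucleolar RNA gene 397 bases upstream on the same strand, was not called, at -0.20, -0.47 and 1.12 in air1 rrp6, air2 rrp6 and rrp6. The SFT1 call in air2 rrp6 was lost without any 1 of the air1 rrp6, air2 rrp6 or WT libraries (adjusted p up to 0.27), and the call in rrp6 without rrp6 replicate 2 or either WT library (up to 0.1).

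The remaining frames called higher had few counts or were called in a single strain. YOR186C-A had 13 and 8 counts in air1 rrp6, 19 and 8 in air2 rrp6, 8 and 5 in rrp6, and 1 and 0 in WT. Its ratio to WT was 37.4 in air1 rrp6 (exact 95% interval 6.02 to 1550, adjusted p = 0.042), 31.6 in air2 rrp6 (5.2 to 1290, adjusted p = 0.047) and 16.3 in rrp6 (2.46 to 695, adjusted p = 0.13). YML094C-A had 3 and 12 counts in air1 rrp6, 19 and 20 in air2 rrp6, 9 and 20 in rrp6, and 0 and 3 in WT, and it was called in air2 rrp6 (ratio 15.2, exact 95% interval 4.83 to 76.9, adjusted p = 0.042). With the block YML094C-A was also called in air1 rrp6 (adjusted p = 0.045) and rrp6 (adjusted p = 0.012). These intervals cover counting error only, and YOR186C-A and YML094C-A passed the low-count filter through mutant libraries alone. YGL194C-A was called in rrp6 (log2 fold change 1.55, adjusted p = 0.028), with 1.07 in air1 rrp6 (adjusted p = 0.14) and 1.33 in air2 rrp6 (adjusted p = 0.052, and 0.029 with the block). YIL102C-A was called in air1 rrp6 (2.80, adjusted p = 0.045), with 1.64 in air2 rrp6 and 1.57 in rrp6. YPR170W-B, at 34.4 and 33.3 CPM in air1 rrp6 against 21.3 and 19.7 CPM in WT, was called in air1 rrp6 (0.72, adjusted p = 0.036), with 0.19 in air2 rrp6 and 0.23 in rrp6. Each of these calls was lost when 1 of several libraries was left out, either WT replicate 2 or a library of the mutant itself among them, with adjusted p up to 0.35. A call in a single mutant does not show that the mutants differ.

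**Figure D3:**
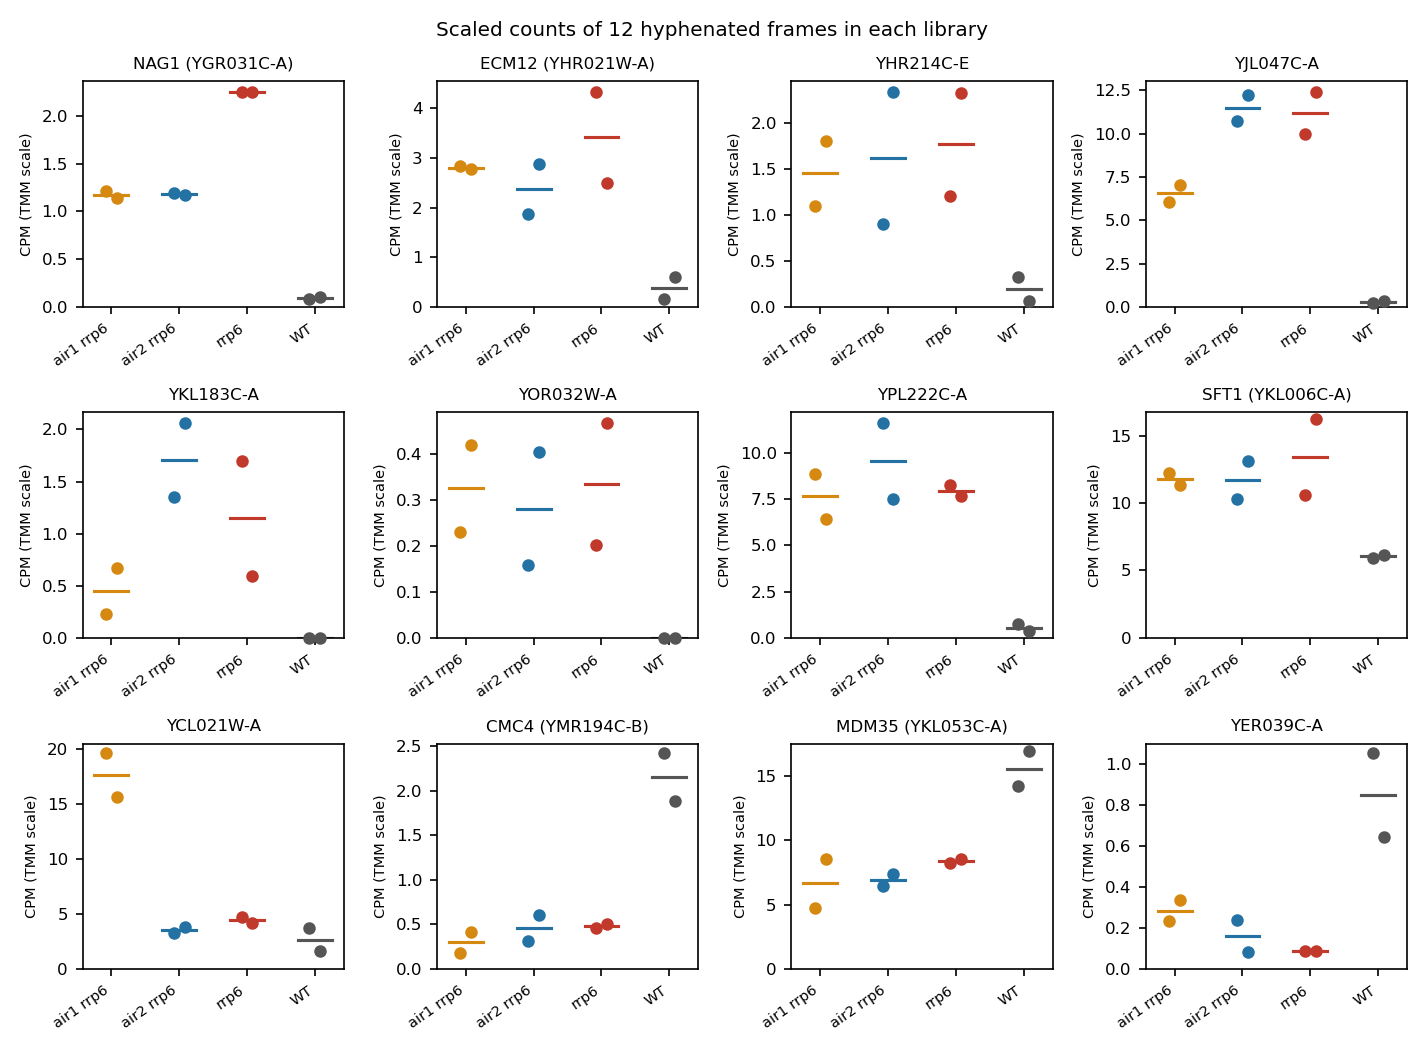
CPM on the TMM scale (vertical axes, each from 0) of 12 members in the air1 rrp6, air2 rrp6, rrp6 and WT libraries; points are libraries and lines are means. The first 8 panels show frames called higher in at least 2 mutants, YCL021W-A stands at 15.6 and 19.6 in air1 rrp6 and at most 4.76 elsewhere, and the mutant libraries of CMC4, MDM35 and YER039C-A lie below both WT libraries, though MDM35 was not called in rrp6 and YER039C-A was not called in air1 rrp6 or air2 rrp6.

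Only 3 members were called lower, namely CMC4, MDM35 and YER039C-A. CMC4 and MDM35 encode proteins of the mitochondrial intermembrane space, but whether frames of that compartment moved as a set was not tested. CMC4, a twin CX9C protein, had 0.174 and 0.420 CPM in air1 rrp6, 0.317 and 0.606 CPM in air2 rrp6, 0.462 and 0.509 CPM in rrp6, and 2.42 and 1.89 CPM in WT. All 6 mutant libraries lay below both WT libraries, and the log2 fold changes were -2.77 in air1 rrp6 (SE 0.60, adjusted p = 0.022), -2.23 in air2 rrp6 (SE 0.55, adjusted p = 0.031) and -2.13 in rrp6 (SE 0.55, adjusted p = 0.038). MDM35, a partner of the Ups lipid transfer proteins, had 4.74 and 8.53 CPM in air1 rrp6, 6.42 and 7.39 CPM in air2 rrp6, 8.25 and 8.53 CPM in rrp6, and 14.2 and 16.9 CPM in WT. Its log2 fold changes were -1.22 in air1 rrp6 (adjusted p = 0.03), -1.18 in air2 rrp6 (adjusted p = 0.028) and -0.89 in rrp6 (adjusted p = 0.083). With the block, MDM35 was also called in rrp6. YER039C-A, whose role is unknown, had 4 and 8 counts in air1 rrp6, 9 and 2 in air2 rrp6, 3 and 2 in rrp6, and 13 and 39 in WT. It was called in rrp6 (-3.17, adjusted p = 0.03), with -1.47 in air1 rrp6 and -2.23 in air2 rrp6, where the block also called it (adjusted p = 0.05 after rounding). All of these lower calls were lost with scaling by library totals. CMC4's call held in 10 of 15 alternatives in air1 rrp6, 7 in air2 rrp6 and 5 in rrp6, and was lost in each without WT replicate 2 or a library of the mutant itself (adjusted p up to 0.14, 0.23 and 0.24). MDM35's calls were lost without WT replicate 2 or either air2 rrp6 library, and in air1 rrp6 also without air1 rrp6 replicate 1. YER039C-A's call was lost without any 1 of the rrp6, air1 rrp6 or WT libraries (up to 0.17).

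The small nucleolar RNA gene SNR11 lies 61 bases downstream of CMC4 on the opposite strand. Its counts, 8971 and 6851 in air1 rrp6, 9473 and 4957 in air2 rrp6, 4576 and 13071 in rrp6, and 951 and 32026 in WT, exceeded those of CMC4 in each library, and it was not called. The neighbours of MDM35, DEF1 and ASK1, were not called either and had log2 fold changes between -0.13 and 0.30.

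Members with a known role were sorted into 7 lists, which hold 48 of them. In the list of respiratory chain and ATP synthase factors, 10 of 10 were tested and CMC4 alone was called, lower in each mutant, and the block added COA3, higher in air1 rrp6; the median log2 fold change was -0.15 in air1 rrp6, -0.41 in air2 rrp6 and -0.38 in rrp6. ATP18, a subunit of the ATP synthase and the most abundant of the list per kilobase, had 10.9 ± 1.7 CPM in air1 rrp6, 8.43 ± 2.0 CPM in air2 rrp6, 7.69 ± 0.47 CPM in rrp6 and 11.6 ± 5.1 CPM in WT (SD, n = 2 each). Among 6 factors of mitochondrial import, assembly and translation, all tested, MDM35 was called lower in air1 rrp6 and air2 rrp6 and no other was called. Their medians were -0.09 in air1 rrp6, -0.74 in air2 rrp6 and -0.89 in rrp6, beside 0.02, 0.03 and 0.01 over all features. Coding frames of at most 100 codons without a hyphen, which are not members, had medians of -0.08, -0.34 and -0.54. Levels of that class were lowest in rrp6 replicate 1, as given below. Whether the list differs from frames of like length was not tested. TIM10, a chaperone of the intermembrane space, had 16.8 and 32.0 CPM in air1 rrp6, 14.1 and 18.0 CPM in air2 rrp6, 19.5 and 16.2 CPM in rrp6, and 33.9 and 32.1 CPM in WT. Its log2 fold changes were -0.43, -1.04 (adjusted p = 0.055) and -0.88 (adjusted p = 0.099) in those mutants, and with the block it was called in air2 rrp6. MIM2, a factor of outer membrane import, had -0.02 in air1 rrp6, -0.94 in air2 rrp6 and -1.68 in rrp6 (adjusted p = 0.1).

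In the list of the secretory pathway and membranes, 13 of 13 were tested, and SFT1 alone was called. SBH2 had 53.4 and 98.5 CPM in air1 rrp6, 68.4 and 66.5 CPM in air2 rrp6, 25.3 and 62.3 CPM in rrp6, and 59.2 and 63.2 CPM in WT, groups that overlap in part. EGO4 had the largest fitted change of that list in rrp6, -1.34 (adjusted p = 0.33), with 0.548 and 0.764 CPM in rrp6 against 2.82 and 0.740 CPM in WT. Of 6 kinetochore and chromosome factors none was called. There DAD4 of the DASH complex had 0.375 and 1.10 CPM in rrp6, against 4.75 and 1.32 CPM in WT (-2.0, adjusted p = 0.25), and MHF1, which binds branched DNA with the FANCM homologue, had 3.55 and 5.98 CPM in rrp6, against 6.60 and 5.10 CPM in WT.

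None of 6 factors of transcription, splicing and RNA was called. NOP10, a protein of the H/ACA small nucleolar ribonucleoproteins, had 30.5 and 39.6 CPM in air1 rrp6, 15.6 and 38.7 CPM in air2 rrp6, 7.21 and 36.4 CPM in rrp6, and 19.6 and 39.6 CPM in WT. SUS1, shared by the SAGA and TREX-2 complexes, had log2 fold changes of -0.64 in air1 rrp6, -1.23 in air2 rrp6 (adjusted p = 0.089) and -0.96 in rrp6 (adjusted p = 0.18), and with the block it was called lower in air2 rrp6. Of 4 translation factors 3 were tested and none was called, and TMA7, a ribosome-associated protein, had log2 fold changes of -0.20 in air1 rrp6, -1.02 in air2 rrp6 and -1.11 in rrp6. None of 3 stress genes was called. SPO24, a small sporulation protein on that list, had 94.6 and 71.9 CPM in air1 rrp6, against 55.3 and 27.5 CPM in WT (1.02, adjusted p = 0.22), and with the block it was called higher (1.09, adjusted p = 0.0083). HOR7 had 131 and 120 CPM in air1 rrp6, 33.1 and 77.4 CPM in air2 rrp6, 18.2 and 61.9 CPM in rrp6, and 206 and 69.6 CPM in WT. WT replicate 1 lay above all others, while WT replicate 2 lay within the range of the mutants.

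The double mutants were then set against rrp6 and against each other, which addresses what the loss of Air1 or of Air2 adds. No member was called by edgeR in air1 rrp6 against rrp6 (23 had an unadjusted p below 0.05, 20 higher and 3 lower), in air2 rrp6 against rrp6 (7, of which 2 were higher and 5 lower) or in air1 rrp6 against air2 rrp6 (8, of which 5 were higher and 3 lower). Over all features, 0.0663%, 0.0133% and 0.0795% were called in these comparisons at the adjusted threshold. The counts at an unadjusted p below 0.05 were not set against all features and are not read as a result about the members. DESeq2 called 1 member in air1 rrp6 against rrp6, none in air2 rrp6 against rrp6 and 1 in air1 rrp6 against air2 rrp6, and it was the same frame, YCL021W-A. Comparisons that share a strain are not independent of each other.

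YCL021W-A, a frame of 125 codons with no known role, had 19.6 and 15.6 CPM in air1 rrp6, 3.3 and 3.8 CPM in air2 rrp6, 4.76 and 4.20 CPM in rrp6, and 3.70 and 1.64 CPM in WT. Both air1 rrp6 libraries lay above all 6 others. It was higher in air1 rrp6 than in WT (log2 fold change 2.81, SE 0.38, adjusted p = 0.0032), a call that held in each of 15 alternatives, and was not called in air2 rrp6 (0.50) or rrp6 (0.84). Between air1 rrp6 and rrp6 the log2 fold change was 1.97 (SE 0.35, adjusted p = 0.29), and DESeq2 gave 1.96 with an adjusted p of 0.00036. That edgeR call was made without WT replicate 1 or 2 (adjusted p = 0.033 and 0.03). Between air1 rrp6 and air2 rrp6 it was 2.31 (SE 0.36, adjusted p = 0.081), and with the block it was called (2.30, adjusted p = 0.0095). DESeq2 gave 2.30 with an adjusted p of 3.6e-06 there, and edgeR gave 0.0082 without WT replicate 1 and 0.0073 without WT replicate 2. Over all alternatives the adjusted p ran up to 1.0 in both comparisons. YCL020W, a Ty frame 1104 bases downstream on the same strand, had 56 and 49 counts in air1 rrp6, 95 and 64 in air2 rrp6, 72 and 60 in rrp6, and 43 and 123 in WT, and was not called.

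The difference of YJL047C-A between the mutants did not pass the adjusted threshold. It is among the members with an unadjusted p below 0.05 in air1 rrp6 against rrp6 and against air2 rrp6. Its log2 fold change was -0.77 in air1 rrp6 against rrp6 (SE 0.24, adjusted p = 0.78), 0.04 in air2 rrp6 against rrp6 (SE 0.24, adjusted p = 1.0) and -0.81 in air1 rrp6 against air2 rrp6 (SE 0.24, adjusted p = 0.99). NAG1 had -0.94 in air1 rrp6 against rrp6 and -0.93 in air2 rrp6 against rrp6, with libraries that did not overlap (adjusted p = 0.78 and 1.0). YPL222C-A had -0.06 and 0.26 in those comparisons, with libraries that overlapped.

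Among 64 tested members without a symbol, 9 were higher in air1 rrp6 (14.1%, against 7.64% of all features), 7 in air2 rrp6 (10.9%, against 8.75%) and 6 in rrp6 (9.38%, against 8.8%). The shares in air2 rrp6 and rrp6 are near the background. The 9 in air1 rrp6 include YKL183C-A, YOR032W-A and YOR186C-A, which passed the low-count filter through mutant libraries alone. The share in air1 rrp6 is therefore not read as an excess. Among 118 with a symbol, 2 were higher in air1 rrp6 (1.69%), 3 in air2 rrp6 (2.54%) and 3 in rrp6 (2.54%). The median log2 fold changes without a symbol were 0.34 in air1 rrp6, 0.32 in air2 rrp6 and 0.35 in rrp6, and with one they were 0.19, -0.08 and -0.21. Over all 7543 features the medians were 0.02, 0.03 and 0.01. The difference between the classes was not tested. They differ in depth, with WT medians of 0.662 CPM without a symbol and 4.8 CPM with one, and the part of depth in these counts was not tested. Hyphenated frames annotated as Dubious, which are not members, had a median of 0.85 in air1 rrp6, 0.85 in air2 rrp6 and 1.13 in rrp6. Scaling by library totals moved the median of all features by 0.75 in air1 rrp6, 0.92 in air2 rrp6 and 0.63 in rrp6. Relative to the median of all features the members without a symbol then stood at 0.39 in air1 rrp6, 0.34 in air2 rrp6 and 0.42 in rrp6, and those with a symbol at 0.21, -0.07 and -0.20.

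**Figure D4:**
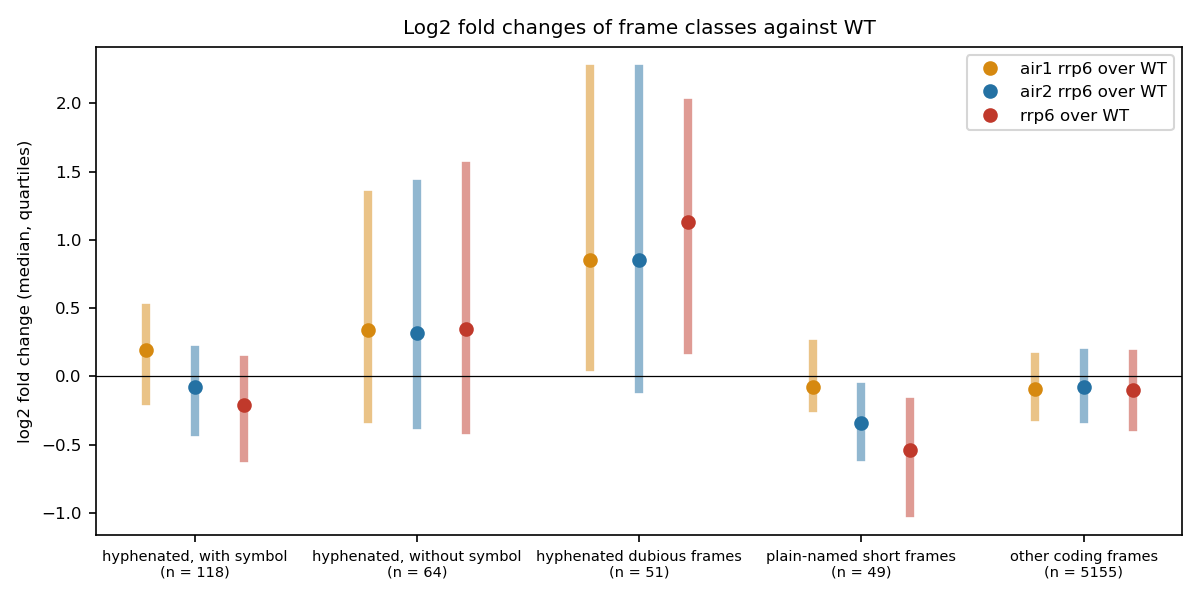
Median log2 fold change over WT (points) and quartiles (bars) of the tested frames in 5 classes, for air1 rrp6, air2 rrp6 and rrp6; n is the number tested. Members without a symbol have medians of 0.32 to 0.35, members with a symbol lie between -0.21 and 0.19, and plain-named frames of at most 100 codons between -0.54 and -0.08.

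Levels of members with a symbol also moved with the library. Their median deviation from the mean over the 8 libraries, on log2(CPM + 0.1), was 0.12 and 0.34 in air1 rrp6, -0.23 and 0.13 in air2 rrp6, -0.34 and 0.01 in rrp6, and 0.10 and 0.06 in WT. Plain-named coding frames of at most 100 codons, which are not members, deviated in the same libraries by 0.14 and 0.40 in air1 rrp6, -0.31 and 0.10 in air2 rrp6, -0.79 and 0.00 in rrp6, and 0.20 and 0.22 in WT. In rrp6 replicate 1 both classes of short frames were at their lowest, and in air1 rrp6 replicate 2 at their highest. The median of members with a symbol in rrp6 against WT was -0.05 without rrp6 replicate 1 and -0.44 without rrp6 replicate 2. Without rrp6 replicate 2, 17 members were called lower in rrp6, among them SBH2, TMA7 and MIM2, and so were 4.22% of all features. Without rrp6 replicate 1 no member was called lower, and 0.366% of all features were. In air1 rrp6 against rrp6, members with a symbol had a median of 0.43, against 0.21 without rrp6 replicate 1.

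In air1 rrp6 against rrp6, plain-named coding frames had median log2 fold changes of 0.61 at up to 100 codons, 0.34 at 101 to 200, 0.14 at 201 to 400 and -0.11 above 400. Members with a symbol had 0.47 at up to 100 codons and 0.44 at 101 to 200, and members without a symbol 0.05 at up to 100. The part of frame length and of these libraries in the members' values was not tested.

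**Figure D5:**
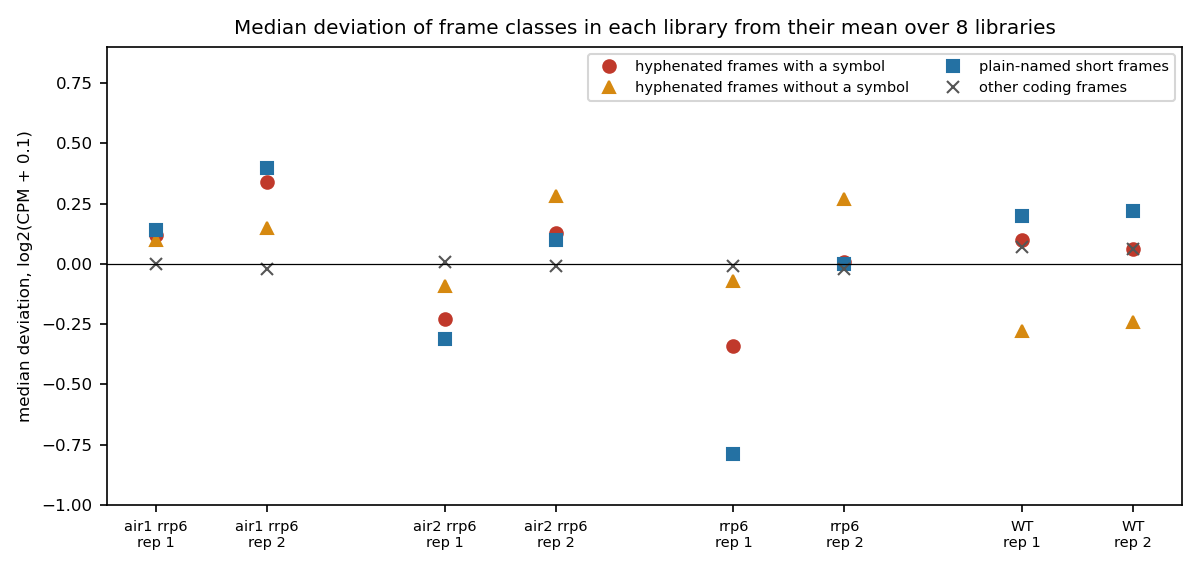
Median deviation of log2(CPM + 0.1) from the mean over the 8 libraries (vertical axis) for 4 classes of frames in each library, with strains from left to right air1 rrp6, air2 rrp6, rrp6 and WT. Plain-named short frames and members with a symbol are lowest in rrp6 replicate 1, at -0.79 and -0.34, while other coding frames stay between -0.02 and 0.07.

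Of 19 members that overlap another annotated feature, 16 were tested, and 3 were called higher in each mutant, namely YJL047C-A, NAG1 and ECM12. That is 18.8%, beside 7.64% of all features in air1 rrp6, 8.75% in air2 rrp6 and 8.8% in rrp6, and it rests on 3 frames. Of 180 that overlap none, 154 were tested, and 6 were higher in air1 rrp6 (3.9%), 4 in air2 rrp6 (2.6%) and 5 in rrp6 (3.25%). The 22 members not in RefSeq, whose overlap is unknown, are in neither group. Among them are YPL222C-A, YOR186C-A and YML094C-A, all called higher in air2 rrp6. Whether overlap goes with the calls was not tested. YOR072W-B and YNL042W-B, named after their values were seen, each lie over an RNA gene on the same strand, which for YOR072W-B is the transfer RNA gene SUF11. YOR072W-B had 87 and 19.6 counts in air1 rrp6, 34.8 and 20.4 in air2 rrp6, 20.6 and 185 in rrp6, and 16.7 and 2770 in WT. YNL042W-B had 43.2 and 51.2 counts in air1 rrp6, 80.5 and 15.9 in air2 rrp6, 23 and 92 in rrp6, and 24.3 and 1754 in WT. Neither was called in the fit above. With scaling by library totals both were lower in air2 rrp6 and YNL042W-B in rrp6, and WT replicate 2 alone set their high WT level.

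The 11 members called higher that have a RefSeq sequence had a median GC content of 37.1% (31.5 to 48.2%) and a median of 85 codons, and 2 were spliced. The 156 tested members with a sequence that were never called had 40.2% (26.9 to 56.7%) and 83 codons, and 25 were spliced. The ranges of GC content and length overlapped, and no test of these differences was made.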

How the data were processed

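Polyadenylated RNA of 4 yeast strains, with 2 libraries each, was sequenced on SOLiD. The values deposited by the authors are expected counts, unscaled. Between 11.1 and 13% of the values in a library are not whole numbers (beyond rounding error), and counts were rounded before the fit. The submitters' processing notes list edgeR 2.2.5, SAMtools and Bowtie 0.12.7 without saying what each did. Build, annotation and strand setting: not given in the sources used here. Genome coordinates are therefore left out. Frames were matched by identifier to RefSeq R64 for symbols, lengths and sequences.

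Features passing filterByExpr (minimum count 10) of edgeR 4.0.16 in R 4.3.3 were scaled by TMM and fitted over 8 libraries by robust quasi-likelihood, with the strain as the only term, and p-values were Benjamini-Hochberg adjusted over 7543 features. The code was tested on simulated data. Alternatives were DESeq2 1.42.0, other scalings, no filter, the 2 strains alone, ribosomal DNA share as a covariate, the replicate number as a block, and each library left out, where the lone library of a strain is assumed to vary like the others. Same-numbered libraries deviated together in all 6 pairs of strains (r of 0.1256 to 0.3661 across features). A pairing by number is possible, though no label states one. Blocked values stand beside a result where they change a call or a count by more than 1.5 times. Chi-square over degrees of freedom between duplicates was 33.96 to 92.78, above counting error. An exact test of 2 libraries against 2 cannot go below p = 0.33. Floors are 3 counts over a strain's libraries and cover only the counting error of that strain.

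Named frames are YJL047C-A, every member past the threshold, the 6 most abundant per kilobase in WT, the most abundant and most changed of each role list, the frames nearest the 20-count minimum, and the 3 with profiles most like YJL047C-A. The members and lists were chosen with earlier results of these data known. Other tables of the authors were not used here beyond the annotation. Tables were computed in Python 3.11.15 with pandas 2.3.3.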

Additional observations from a re-analysis of the deposited data

How the results depend on the processing

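Of 36 calls of a member against WT, 9 held in every alternative that could be fitted: YJL047C-A and YPL222C-A in each mutant, NAG1 in air1 rrp6 and rrp6, and YCL021W-A in air1 rrp6. No call changed sign in any alternative. With 1 library left out, members called higher than WT numbered 4 to 9 in air1 rrp6, 4 to 8 in air2 rrp6 and 4 to 8 in rrp6, and members called lower 0 to 4 in air1 rrp6, 0 to 4 in air2 rrp6 and 0 to 17 in rrp6. The fewest calls came without WT replicate 2 or without 1 library of the double mutant itself, and the 17 lower calls came without rrp6 replicate 2. In air1 rrp6 against rrp6 and against air2 rrp6, some fits with a library left out called YCL021W-A higher. Against rrp6, the fit without rrp6 replicate 2 called MBF1 instead. MBF1, named after its values were seen, had a log2 fold change of 1.07 there in the fit over all libraries. Scaling by library totals gave 26 higher and 0 lower in air1 rrp6, 24 higher and 2 lower in air2 rrp6, and 19 higher and 1 lower in rrp6, while 14.9, 18.8 and 14% of all features were called. Fits of the 2 strains alone gave 5 higher in each mutant, with 1 lower in air1 rrp6, 3 in air2 rrp6 and 0 in rrp6. They called 5.03, 7.71 and 4.79% of all features in air1 rrp6, air2 rrp6 and rrp6. In air1 rrp6 against air2 rrp6 they gave 1 member higher, and 0.164% of all features were called. The covariate for ribosomal DNA share gave 4, 2 and 4 higher in air1 rrp6, air2 rrp6 and rrp6, and 0 lower in each. It ended 26 of the 36 calls. The share of all features called fell as well, from 8.39 to 1.83% in air1 rrp6, 10.3 to 1.25% in air2 rrp6 and 10.1 to 4.24% in rrp6. That loss of calls is therefore not particular to the members. With the replicate block, 5 members were lower in air2 rrp6 and 6 in rrp6, beside 2.93 and 2.74% of all features. In air1 rrp6 against air2 rrp6, 1 was higher, beside 0.0928% of all features. The block ended none of the 36 calls. DESeq2 gave 5 lower in rrp6, beside 1.79% of all features. It gave 1 higher in air1 rrp6 against rrp6 and against air2 rrp6, beside 0.034 and 0.136% of all features. The cause of these shifts was not tested. Depth limits the frames with few counts: 39 members were removed by the low-count filter (none was called without it), and WT replicate 1 detected 186 of the 221.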
